A study of Mus musculus with 6 samples.

Results

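The small leucine-rich proteoglycans are secreted proteins of the extracellular matrix whose core is a curved stack of leucine-rich repeats. Most carry glycosaminoglycan chains of chondroitin, dermatan or keratan sulfate, and the core and the chains together bind collagen fibrils and set their diameter and spacing. Several also hold transforming growth factor beta in the matrix or signal to cells through Toll-like receptors and receptor tyrosine kinases. Fibroblasts of loose connective tissue, tendon, heart and lung are among their main sources. The genes described here are 9 of the 57180 gene identifiers in the count table, taken by symbol from a list of the family. In the usual division of the family by protein sequence, Bgn, Dcn and Aspn form class I, Lum, Fmod, Prelp and Omd class II, Ogn belongs to class III and Podn to class V.

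RNA was measured in cultured mouse fibroblasts of 3 origins: lung, cardiac and tail tip. Cells of each origin received an adenovirus encoding either GFP (Ad-GFP, the control arm) or the recombinase Cre (Ad-Cre, which the series calls GATA4 KO), and were collected after 48 h. All 6 libraries carry the genotype WT in the labels. The labels name no strain, age or animal. A knockout by Cre needs loxP sites in Gata4, and the labels name no such allele. Each of the 6 groups holds 1 library, with totals between 26170316 and 33779069 counts. Origins were therefore compared against how the difference between Ad-Cre and Ad-GFP varied between origins, a spread estimated partly from other genes. Nothing says that the libraries of an origin came from separate cultures or animals, so p-values measure only the spread between these libraries. Origin and donor cannot be told apart.

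The labels were checked on Gata4 (ENSMUSG00000021944), the targeted transcription factor. Its level was 14.7 CPM (counts scaled to library size with TMM factors) in lung Ad-GFP and 19.2 in lung Ad-Cre, 146 and 149 in the cardiac pair, and 1 and 2 reads in the tail tip pair. The scaled Gata4 level was thus not lower with Ad-Cre in any origin, and a deletion of part of the gene need not lower its count. All 10 fibroblast markers (among them Pdgfra, Thy1, Vim, Col1a1 and Ddr2) had reads in every library, with a summed level between 10693 and 32157 CPM. Markers of other cells also had reads. The 12 macrophage and leukocyte markers summed to 20 and 16.1 CPM in the lung pair (Ad-GFP, then Ad-Cre), 1052 and 628 in the cardiac pair and 5320 and 4519 in the tail tip pair. C1qa and C1qb were at 0 in both lung libraries and none of the 12 was at 0 in the cardiac and tail tip libraries. The 7 tendon and cartilage markers summed to 61.0 and 83.6, 78.8 and 112, and 147 and 131 CPM in the same order. Tnmd, the gene of the tendon membrane protein tenomodulin, had 2011 and 2066 reads in tail tip and at most 11 elsewhere. Scx, Mkx and Comp of this list were also highest in tail tip, but Sox9, Acan and Col2a1 were highest in cardiac cells. Mean levels in lung, cardiac and tail tip were 67.8, 81.9 and 41.3 CPM for Sox9 and 0, 3.16 and 0.198 for Acan. For Col2a1 they were 0.115, 2.88 and 0.583 CPM. In such bulk cultures fewer cells of a type and less RNA per cell cannot be told apart.

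Of the 9 genes, 7 lie in 3 clusters with other members of the family, so the promoters of neighbours with like and unlike levels can be read side by side. Fmod and Prelp are adjacent on chromosome 1 and were both low in lung, intermediate in cardiac and high in tail tip fibroblasts. Aspn and Omd are adjacent on chromosome 13; Aspn was high in tail tip and Omd was near the limit of detection in all libraries. The 250 bases before the start site of these 4 genes are given from RefSeq (GRCm38.p6), 5′ to 3′ on the strand of the gene, with capitals marking a GATA or TATA match.
Fmod, chr1:134037004-134037253, plus strand: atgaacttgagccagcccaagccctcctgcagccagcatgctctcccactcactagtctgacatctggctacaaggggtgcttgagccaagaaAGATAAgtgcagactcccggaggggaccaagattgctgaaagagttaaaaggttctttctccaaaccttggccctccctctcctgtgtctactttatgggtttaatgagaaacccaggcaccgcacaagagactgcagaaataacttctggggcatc
Prelp, chr1:133921402-133921651, minus strand: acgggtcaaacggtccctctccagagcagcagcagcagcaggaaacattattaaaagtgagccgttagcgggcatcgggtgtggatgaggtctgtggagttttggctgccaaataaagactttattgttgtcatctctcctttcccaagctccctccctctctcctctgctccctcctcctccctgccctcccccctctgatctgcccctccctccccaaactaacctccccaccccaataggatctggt
Aspn, chr13:49544193-49544442, plus strand: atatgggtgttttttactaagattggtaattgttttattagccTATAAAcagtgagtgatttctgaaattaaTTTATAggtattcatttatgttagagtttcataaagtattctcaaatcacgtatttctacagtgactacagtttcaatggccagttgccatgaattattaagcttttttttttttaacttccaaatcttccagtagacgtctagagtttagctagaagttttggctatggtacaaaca
Omd, chr13:49582212-49582461, plus strand: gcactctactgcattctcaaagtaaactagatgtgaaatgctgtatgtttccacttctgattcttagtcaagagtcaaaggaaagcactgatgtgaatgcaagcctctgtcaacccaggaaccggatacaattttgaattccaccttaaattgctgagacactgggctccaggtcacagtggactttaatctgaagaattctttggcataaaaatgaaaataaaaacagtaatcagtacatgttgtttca
Matches were sought on both strands for a GATA motif, searched as AGATAA, with A or T as its first letter and A or G as its last. The TATA motif was TATAAA. The AP-1 motif was TGACTCA, and no match overlapped another in the windows shown. Fmod held 1 GATA match, Aspn held 2 TATA matches, and neither Prelp nor Omd held a match to any of the 3. The Aspn matches began 207 and 178 bases before the start site. The window of Ogn, in the same cluster and not printed, also held 2 TATA matches. Whether any match bears on the levels was not tested. Of 32851 RefSeq windows of the same length, 26.5% held the GATA motif, 12.4% the TATA motif and 4.46% the AP-1 motif. The GC content was 30% for Aspn, 38.4% for Omd, 51.2% for Fmod and 55.6% for Prelp, against a median of 52.4% over all windows. RefSeq promoter windows were matched for 7 of the 9 genes, all but Dcn and Lum. The counts use another build (mm39), so these coordinates belong to the promoter windows alone.

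Class I. Bgn (ENSMUSG00000031375, chromosome X) encodes biglycan, a collagen-binding proteoglycan with chondroitin or dermatan sulfate chains that also signals through Toll-like receptors when released. It had 2329 and 2712 CPM in lung Ad-GFP and Ad-Cre, 3805 and 4013 in the cardiac pair, and 4072 and 4123 in the tail tip pair. Both lung libraries were lower than all others, and the cardiac and tail tip pairs lay close together. Dcn (ENSMUSG00000019929, chromosome 10) encodes decorin, the closest relative of biglycan and a binder of type I collagen and transforming growth factor beta. Its level was 684 and 428 CPM in the lung pair, 88.5 and 51.0 in the cardiac pair, and 842 and 895 in the tail tip pair. The cardiac libraries were far below the lung and tail tip libraries, and the 3 pairs did not overlap. Aspn (ENSMUSG00000021388, chromosome 13) encodes asporin, which has a run of aspartates in place of the glycosaminoglycan attachment site and competes with decorin for collagen. Its values were 0.206 and 0.467 CPM in the lung pair (6 and 12 reads), 0.983 and 0.589 in the cardiac pair (32 and 18 reads), and 76.2 and 67.2 in the tail tip pair (2425 and 2228 reads). Aspn was thus abundant in tail tip cultures and had few reads elsewhere.

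Class II. Lum (ENSMUSG00000036446, chromosome 10) encodes lumican, a keratan sulfate proteoglycan that spaces collagen fibrils and is needed for a clear cornea. It had 21.5 and 7.48 CPM in the lung pair, 2.89 and 1.11 in the cardiac pair, and 172 and 160 in the tail tip pair. Like its neighbour Dcn, it was lowest in the cardiac libraries. Fmod (ENSMUSG00000041559, chromosome 1) encodes fibromodulin, which carries sulfated tyrosines and guides fibril maturation in tendon. It had 1 and 4 reads in the lung pair (0.0343 and 0.156 CPM), 3.53 and 3.76 CPM in the cardiac pair, and 183 and 162 CPM in the tail tip pair. Prelp (ENSMUSG00000041577, chromosome 1) encodes a protein with an arginine- and proline-rich end that binds heparan sulfate and anchors basement membranes to connective tissue. Its values were 0.206 and 0.195 CPM in the lung pair (6 and 5 reads), 9.67 and 13.6 in the cardiac pair, and 73.5 and 104 in the tail tip pair. Fmod and Prelp had the same order of origins, with lung, cardiac and tail tip libraries apart from one another. Omd (ENSMUSG00000048368, chromosome 13) encodes osteomodulin, a keratan sulfate proteoglycan of bone. It had 10 and 12 reads in the lung pair, 9 and 12 in the cardiac pair, and 2 and 7 in the tail tip pair, at most 0.467 CPM, so its differences were hardly measurable at this depth. The floor, the level that a count of 0 still allows (3 counts), was 0.0905 to 0.117 CPM.

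Classes III and V. Ogn (ENSMUSG00000021390, chromosome 13) encodes osteoglycin, also called mimecan, a small member of the family found in bone, heart and vessel wall. It had 1.47 and 1.71 CPM in the lung pair, 9.64 and 5.20 in the cardiac pair, and 31.6 and 29.7 in the tail tip pair. Podn (ENSMUSG00000028600, chromosome 4) encodes podocan, a collagen-binding member first described in the kidney glomerulus. Its level was 0.274 and 0.701 CPM in the lung pair (8 and 18 reads), 1.14 and 1.73 in the cardiac pair, and 3.58 and 3.92 in the tail tip pair. Ogn and Podn rank the 3 origins in the order of Fmod and Prelp, over a smaller range.

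**Figure D1:**
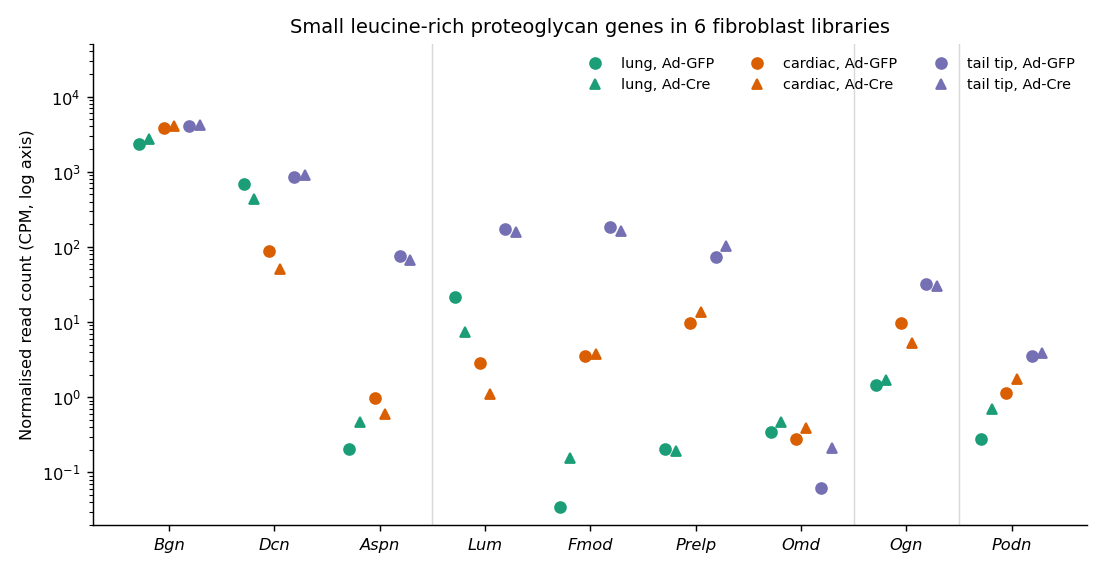
Normalised read counts (CPM, log axis) of the 9 genes, with 1 point per library; circles are Ad-GFP and triangles Ad-Cre, and colours give the origin. Grey lines separate classes I, II, III and V. The tail tip points lie above the lung and cardiac points for every gene except Omd, and for Bgn the tail tip and cardiac points are close together.

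The family as a whole took a larger part of the library in tail tip cultures. The 9 genes held 0.300% of all counts in lung Ad-GFP (95% Clopper-Pearson interval 0.298% to 0.302%, counting error only) and 0.309% (0.307% to 0.311%) in lung Ad-Cre. The share was 0.378% (0.376% to 0.380%) and 0.416% (0.414% to 0.419%) in the cardiac pair. It was 0.560% (0.557% to 0.562%) and 0.568% (0.566% to 0.571%) in the tail tip pair. Levels of different genes were compared per kilobase of annotated exon. On that scale Bgn ranked first and Dcn second in all 6 libraries. Bgn made 75.1% and 85.1% of the family's reads per kilobase in the lung pair, 96.2% and 97.5% in the cardiac pair, and 66.5% and 66.7% in the tail tip pair. With the longest transcript in place of all exons, the Bgn share was 80.3% to 98.7% over the 6 libraries. Dcn made 23.0% and 14.0% of the reads per kilobase in the lung pair, 2.34% and 1.30% in the cardiac pair, and 14.4% and 15.1% in the tail tip pair. In tail tip fibroblasts, ranks below Dcn went to Lum (7.0% and 6.44%) and Fmod (5.51% and 4.83%), and then to Aspn, Prelp and Ogn, each between 1.14% and 3.23%. In the cardiac libraries no gene after Dcn reached 1%. The cardiac family was thus nearly all biglycan, while the tail tip family was spread over more members.

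Between cardiac and lung fibroblasts the members differed in both directions. With edgeR's quasi-likelihood test over all 18143 genes tested (adjusted p under 0.05), 7 of the 9 genes differed, 5 higher and 2 lower in cardiac cells. Of all genes tested, 38.4% were called in this comparison (20.8% higher and 17.6% lower), and the median log2 fold change was 1.24 over the 9 genes and -0.01 over all genes. Prelp was 5.81 ± 0.26 higher on the log2 scale (± SE throughout, edgeR adjusted p = 1.8e-05) and Fmod 5.26 ± 0.40 higher (adjusted p = 0.000126), from a lung level of 1 to 6 reads. Ogn was 2.18 ± 0.32 higher (adjusted p = 0.00205). Dcn and Lum, the collagen binders that lie side by side on chromosome 10, went the other way. The edgeR difference was -3.0 ± 0.24 for Dcn (adjusted p = 0.000161) and -2.81 ± 0.38 for Lum (adjusted p = 0.00144). Bgn was 0.64 ± 0.15 higher in cardiac cells (edgeR adjusted p = 0.0163), but without lung Ad-GFP, tail tip Ad-Cre or tail tip Ad-GFP the adjusted p was 0.145, 0.0728 and 0.0710. Podn was 1.60 ± 0.52 higher (edgeR adjusted p = 0.0474), a call made in 5 of 13 alternatives. It was lost with DESeq2 (0.0630), limma-voom (0.0598), a model without the virus term (0.0513) and both tail tip libraries left out (0.144), and without lung Ad-Cre, lung Ad-GFP, tail tip Ad-Cre or tail tip Ad-GFP (adjusted p of 0.0865, 0.343, 0.128 and 0.121). Aspn (1.24 ± 0.45, edgeR adjusted p = 0.0676) and Omd (-0.28 ± 0.88, adjusted p = 0.826) did not pass. Aspn passed in 6 of 14 alternatives, with DESeq2 (0.0361), with no filter (0.0141) and without cardiac Ad-Cre (0.00170), lung Ad-Cre (0.00623), tail tip Ad-Cre (0.0377) or tail tip Ad-GFP (0.0414). Macrophage markers were higher in the cardiac than in the lung libraries as well, and their part in these differences was not tested.

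Against tail tip cells, cardiac fibroblasts were lower in 6 of the 9 genes and higher in none. Of all genes tested, 33.5% were called (18% lower), and the median log2 fold change was -2.93 over the 9 genes and -0.06 over all genes. Lum (-6.53 ± 0.41, edgeR adjusted p = 6.2e-05) and Aspn (-6.50 ± 0.33, adjusted p = 3.3e-05) had the largest differences, followed by Fmod at -5.56 ± 0.24 (adjusted p = 2.3e-05). Dcn was -3.71 ± 0.25 (edgeR adjusted p = 7.9e-05), Prelp -2.93 ± 0.17 (adjusted p = 5.0e-05) and Ogn -2.08 ± 0.29 (adjusted p = 0.00173). Bgn, the most abundant member, differed by -0.07 ± 0.15 (edgeR adjusted p = 0.761), less than its standard error. Podn was -1.43 ± 0.48 (edgeR adjusted p = 0.0563) and passed in 4 of 13 alternatives: limma-voom (0.0370), no filter (0.0258), and without cardiac Ad-Cre (0.00961) or cardiac Ad-GFP (0.0150). Omd was 1.35 ± 0.95 (edgeR adjusted p = 0.316), from at most 12 reads a library.

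Lung and tail tip fibroblasts were the furthest apart: 8 of the 9 genes were lower in lung and none higher. Of all genes tested, 50.6% were called here (28.2% lower), and the median log2 fold change was -3.72 over the 9 genes and -0.06 over all genes. The difference was -10.82 ± 0.36 for Fmod (edgeR adjusted p = 3.8e-06), -8.74 ± 0.26 for Prelp (adjusted p = 3.4e-06) and -7.74 ± 0.37 for Aspn (adjusted p = 9.8e-06), each against 1 to 12 reads a library in lung. Ogn was -4.26 ± 0.33 (edgeR adjusted p = 6.1e-05), Lum -3.72 ± 0.35 (adjusted p = 0.000160) and Podn -3.03 ± 0.53 (adjusted p = 0.00269). The 2 members with most reads in lung differed least. Bgn was -0.70 ± 0.15 (edgeR adjusted p = 0.00738) and lost its call without lung Ad-GFP (0.0579), tail tip Ad-Cre (0.0820) or tail tip Ad-GFP (0.158). Dcn was -0.70 ± 0.23 (edgeR adjusted p = 0.0360) and lost its call without the virus term (0.106), without lung Ad-Cre (0.155) and without tail tip Ad-Cre, where the difference was -0.28 (adjusted p = 0.618). Omd was 1.63 ± 0.95 and did not pass (edgeR adjusted p = 0.192).

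**Figure D2:**
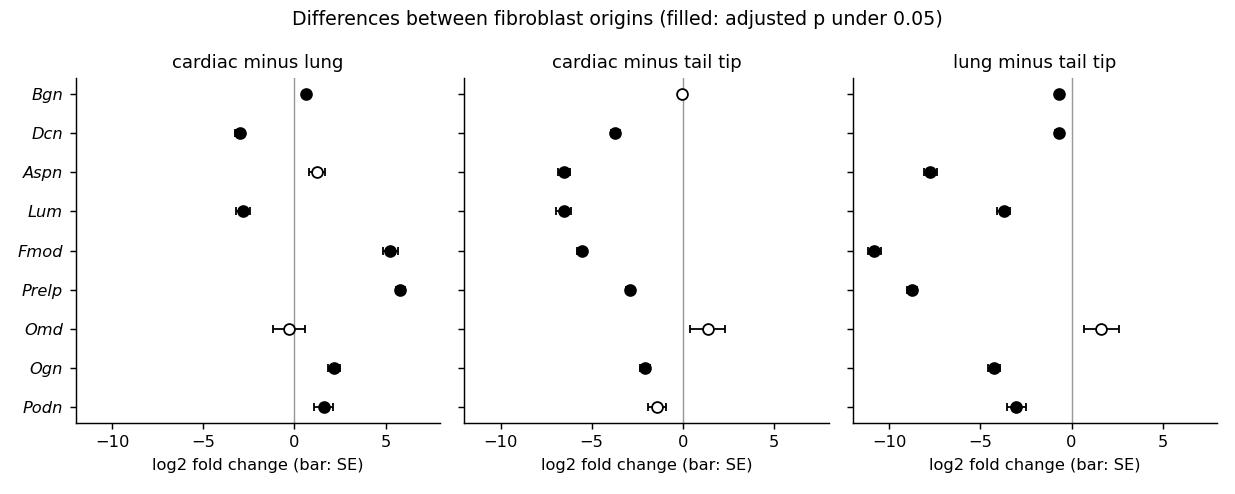
Log2 fold changes between origins for the 9 genes (x axis, log2 scale; bars are standard errors of the edgeR fit), in 3 panels for cardiac minus lung, cardiac minus tail tip and lung minus tail tip. Filled points have an adjusted p under 0.05: 7, 6 and 8 of 9. Points left of the line are lower in the first-named origin, as are all filled points in both comparisons with tail tip cells.

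Read across the 3 comparisons, which share libraries, Dcn, Lum, Fmod, Ogn, Prelp and Aspn were higher in tail tip cells than in both other origins. That is 6 of 9 genes, against 13.4% of all genes tested, with the limits on Dcn given above. Fmod, Prelp and Ogn also differed between lung and cardiac cells, so that lung was below cardiac and cardiac below tail tip in all 3 pairs. That is 3 of 9 genes, against 5.38% of all genes tested. The macrophage markers had the same order of origins, and Tnmd was confined to tail tip apart from the few reads given above. Sox9, Acan and Col2a1, of the same marker list as Tnmd, were highest in cardiac cells. The part of these markers in the members' differences was not tested.

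Neighbours in a cluster shared a profile in part. In the chromosome 10 cluster Dcn and Lum lie beside Kera (keratocan) and Epyc (epiphycan), whose products are known from cornea and growth plate cartilage. Kera had 154 and 150 reads in the tail tip pair, 1 in each lung library and 0 in both cardiac libraries. Its tail tip level was at least 98.5-fold higher than the cardiac one (against a floor of 3 counts over the pair) and 128-fold the lung one (95% counting interval 35.2 to 1064). Epyc had 68 and 86 reads in tail tip and 0 in the other 4 libraries, at least 49.9-fold over cardiac and 43.3-fold over lung. All 4 genes of that cluster were thus highest in tail tip cells. Dcn and Lum were lowest in cardiac cells, and Kera and Epyc had too few reads there and in lung to be ordered. In the chromosome 1 cluster Optc (opticin), which lies beside Prelp, had at most 24 reads in a library while Prelp and Fmod reached 3448 and 5812. In the chromosome 13 cluster Aspn, Omd and Ogn lie in a row, and the row had 3 profiles: Aspn was high in tail tip cells alone, Omd had hardly any reads, and Ogn stepped up from lung to cardiac to tail tip. Ecm2, on the other side of Aspn, ran from 21 to 130 reads. Aspn shares 7 exon bases with Cenpp on the opposite strand, which had 287 and 267 reads in lung, where Aspn had 6 and 12, and 60 and 61 in tail tip. Whether reads were counted by strand is not stated. Prelp shares 350 exon bases with Gm15851, which had at most 3 reads.

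**Figure D3:**
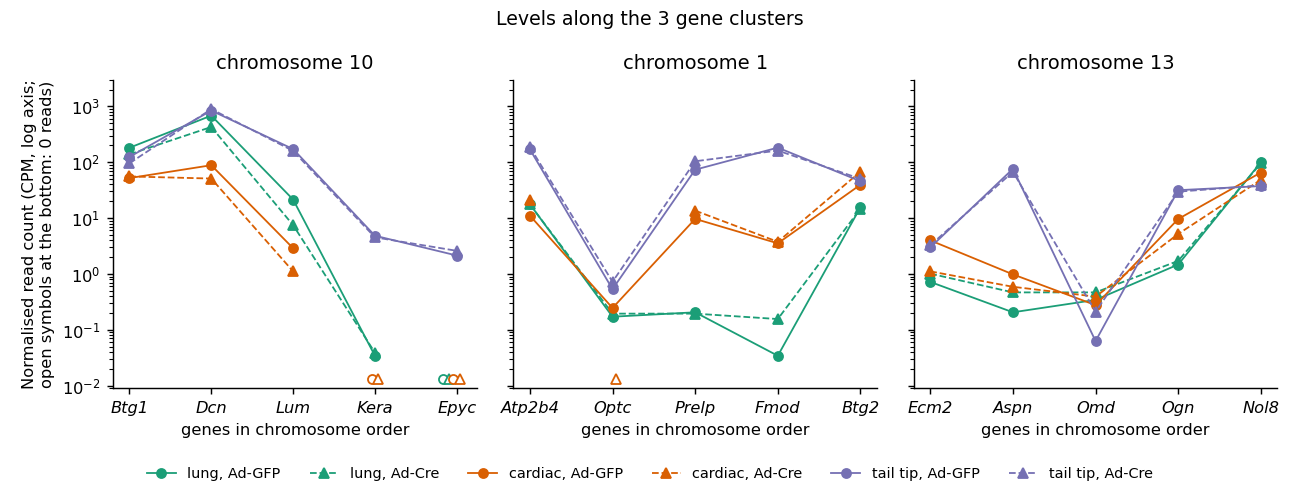
Normalised read counts (CPM, log axis) along the clusters on chromosomes 10, 1 and 13, with genes in chromosome order and the nearest measured gene outside the family at an end; 1 line per library, solid for Ad-GFP and dashed for Ad-Cre, open symbols for 0 reads. Along chromosome 13 the tail tip lines fall from Aspn (76.2 and 67.2 CPM) to Omd (0.0629 and 0.211) and rise again at Ogn (31.6 and 29.7).

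The other members of the family were measured as a list of 9 further genes, of which 8 were tested and Nyx was too low. Tsku (tsukushi), an inhibitor of BMP signalling, had 771 and 659 reads in lung, 2455 and 2450 in cardiac and 3958 and 4625 in tail tip. It was 1.58 ± 0.15 higher in cardiac than in lung (edgeR adjusted p = 0.000317), 0.76 ± 0.15 higher in tail tip than in cardiac cells (adjusted p = 0.00710), and so had the order of origins of Fmod, Prelp and Ogn. Podnl1, the closest relative of Podn, went against Podn: its 240 and 317 reads in lung stood above 121 and 153 in cardiac and 154 and 161 in tail tip. It was 1.05 ± 0.28 higher in lung than in tail tip (edgeR adjusted p = 0.0167) and differed by -1.23 ± 0.28 between cardiac and lung (adjusted p = 0.0129). Over the 8 genes, 2 were higher and 1 lower in cardiac than in lung, 3 were lower in cardiac than in tail tip, and 5 were lower and 1 higher in lung than in tail tip. Chad and Optc passed in none of these.

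Of 12 genes tested for collagens that the family binds or neighbours, 10 were higher in cardiac than in lung and none lower, 8 were lower and 1 higher in cardiac than in tail tip, and all 12 were lower in lung than in tail tip (median log2 fold change -3.21). Col14a1, a fibril-associated collagen, was 6.21 ± 0.37 higher in cardiac than in lung (edgeR adjusted p = 4.6e-05), against only 8 and 11 reads in the lung pair. Col6a1 and Col6a2, subunits of the beaded filaments that biglycan binds, differed by -3.24 ± 0.17 and -3.81 ± 0.21 between cardiac and tail tip cells (edgeR adjusted p = 3.3e-05 and 3.7e-05), while Bgn itself did not pass there. Of 21 genes for the linker and for chondroitin or dermatan sulfate, 11 were higher in cardiac than in lung and none lower. Between cardiac and tail tip, 6 were lower and 1 higher in cardiac, and 14 did not pass (median log2 fold change -0.20). Between lung and tail tip 15 were lower and 2 higher in lung, led by Csgalnact1 at -4.49 ± 0.20 (edgeR adjusted p = 7.5e-06), which starts chondroitin chains. Of 8 keratan sulfate genes, 6 were higher in cardiac than in lung and 6 lower in lung than in tail tip. Between cardiac and tail tip, 2 were higher and 3 lower in cardiac, and 3 did not pass. B4galt4, a galactosyltransferase of that chain, was 7.06 ± 0.30 higher in cardiac than in lung (edgeR adjusted p = 1.5e-05), against only 5 and 6 reads in the lung pair. It was 1.44 ± 0.20 higher in cardiac than in tail tip (edgeR adjusted p = 0.00183). The enzymes that sulfate tyrosines, as on fibromodulin, went against Fmod: Tpst1 and Tpst2 were both higher in lung and in cardiac than in tail tip, by 0.45 to 1.24 on the log2 scale.

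Receptors and growth factors that bind the family were divided. Of 22 tested, 15 were higher and 5 lower in cardiac than in lung, 8 higher and 8 lower in cardiac than in tail tip, and 5 higher and 13 lower in lung than in tail tip. Tlr2 and Cd14, through which free biglycan signals and which leukocytes carry, were -3.43 ± 0.19 and -3.71 ± 0.16 between cardiac and tail tip cells (edgeR adjusted p = 3.6e-05 and 2.4e-05). The Toll-like receptor gene Tlr4, on the same list, did not pass there (-0.13 ± 0.22, edgeR adjusted p = 0.694). Bmp4 went the other way and was 5.50 ± 0.32 higher in cardiac than in tail tip cells (edgeR adjusted p = 4.6e-05). Tgfbr3, betaglycan, was lowest in cardiac cells, as was Dcn: -2.95 ± 0.27 between cardiac and lung and -3.74 ± 0.28 between cardiac and tail tip (edgeR adjusted p = 0.000294 and 0.000117). Of 14 proteases and enhancers that cut members of the family, 7 were higher and 3 lower in cardiac than in lung, 4 higher and 6 lower in cardiac than in tail tip, and 2 higher and 11 lower in lung than in tail tip. Mmp3 and Mmp13 were also lowest in cardiac cells, with -3.95 ± 0.33 and -4.03 ± 0.51 against lung (edgeR adjusted p = 0.000188 and 0.00114). Adamts5 was 4.46 ± 0.26 higher in cardiac than in lung cells (edgeR adjusted p = 4.2e-05). The percentages of all genes called in each comparison are those given above.

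For the members other than Lum, the genes with the most similar profile were sought among the 9219 tested genes whose mean reached 10 CPM, by the root mean square difference of centred log2 CPM over the 6 libraries. Bgn was nearest to Pik3r1 (0.03), Anxa2 and Lasp1, widely expressed genes with the same small step between lung and the other origins. Dcn was nearest to Ugt1a7c (0.21), Has2, the hyaluronan synthase, and Spp1, which encodes osteopontin. Ogn was nearest to Ccdc80 (0.09), a secreted matrix protein, and Podn to Adamtsl4 (0.16), a microfibril-associated protein. Prelp was nearest to Epha4 (0.29), an ephrin receptor. Fmod was nearest to Acod1 (0.46), the itaconate-making enzyme of activated macrophages, and Aspn to Ppbp (0.53), a chemokine gene, followed by the interferon-induced Mx2 and Ifit3. Omd was nearest to Galm (0.27), on few reads. Within the family the nearest pairs were Ogn with Podn (0.74), Bgn with Omd (0.89), Bgn with Podn (0.95), Fmod with Prelp (1.17) and Dcn with Lum (1.40), and the farthest was Fmod with Omd (4.73). Distances to Omd rest on at most 12 reads a library. Bgn and Omd had opposite signs between lung and tail tip (log2 fold changes of -0.70 and 1.63, the latter not called).

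The adenovirus comparison asked whether Ad-Cre changed the family in all origins alike. By edgeR's quasi-likelihood test with origin as a block, 0 of the 9 genes passed, as did 0% of all genes tested, and DESeq2 and limma-voom also called 0 of the 9. At an unadjusted p under 0.05 there were 3 of the 9 genes and 367 of all 18143 genes tested. These were Lum (-0.91 ± 0.29), Prelp (0.46 ± 0.16) and Dcn (-0.46 ± 0.19), each with an edgeR adjusted p of 0.9996. Lum was lower with Ad-Cre in 3 of 3 origins, Prelp higher in 2 of 3 and Dcn lower in 2 of 3. Lum passed in 4 of 15 alternatives: with no filter on low counts (edgeR adjusted p = 0.000186), without cardiac Ad-Cre, without tail tip Ad-Cre and without tail tip Ad-GFP. With no filter, 141 of all 35114 genes passed. A fit with 1 library left out takes the virus term only from origins that keep both libraries. It therefore cannot show a change common to all 3 origins. The other 6 genes had log2 fold changes between -0.30 and 0.78, and the median over the 9 genes was -0.0050.

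Within an origin there is 1 library per virus and no test, so ratios of Ad-Cre over Ad-GFP are given with exact 95% intervals that cover counting error only. Lum, the keratan sulfate proteoglycan, had a ratio of 0.348 (0.295 to 0.410) in lung and 0.385 (0.252 to 0.576) in cardiac cells but 0.930 (0.895 to 0.966) in tail tip cells. Its neighbour Dcn had 0.626 (0.612 to 0.641) in lung, 0.577 (0.542 to 0.614) in cardiac and 1.06 (1.04 to 1.08) in tail tip cells. For both genes the lung and cardiac ratios were close to each other and the tail tip ratio was near 1; the difference between origins was not tested. Ogn had 1.16 (0.746 to 1.81), 0.539 (0.443 to 0.655) and 0.941 (0.861 to 1.03) for the lung, cardiac and tail tip pairs, so that only the cardiac interval excluded 1. Prelp had 0.946 (0.228 to 3.72), 1.41 (1.21 to 1.63) and 1.42 (1.34 to 1.49), alike in the origins with enough reads. Bgn ratios ran from 1.01 to 1.16. In tail tip cells Fmod was 0.886 (0.854 to 0.920) and Aspn 0.882 (0.833 to 0.935), and their lung ratios rest on at most 12 reads a library. Counting 2-fold or more (log2 ratio with a prior count of 2), lung had 3 members, cardiac 1 (Lum lower) and tail tip 1 (Omd higher, from 2 and 7 reads). Those in lung were Lum, lower, Fmod, higher from 1 and 4 reads, and Podn, higher from 8 and 18 reads. The lung interval of Fmod (0.450 to 224) included 1. The share of all genes past 2-fold was 7.69% in lung (4.87% higher, 2.82% lower), 20.3% in cardiac (9.07% lower) and 3.1% in tail tip cells (1.53% higher). Lum was 2-fold lower in both lung and cardiac cells, as were 76 of 18143 genes (0.419%).

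**Figure D4:**
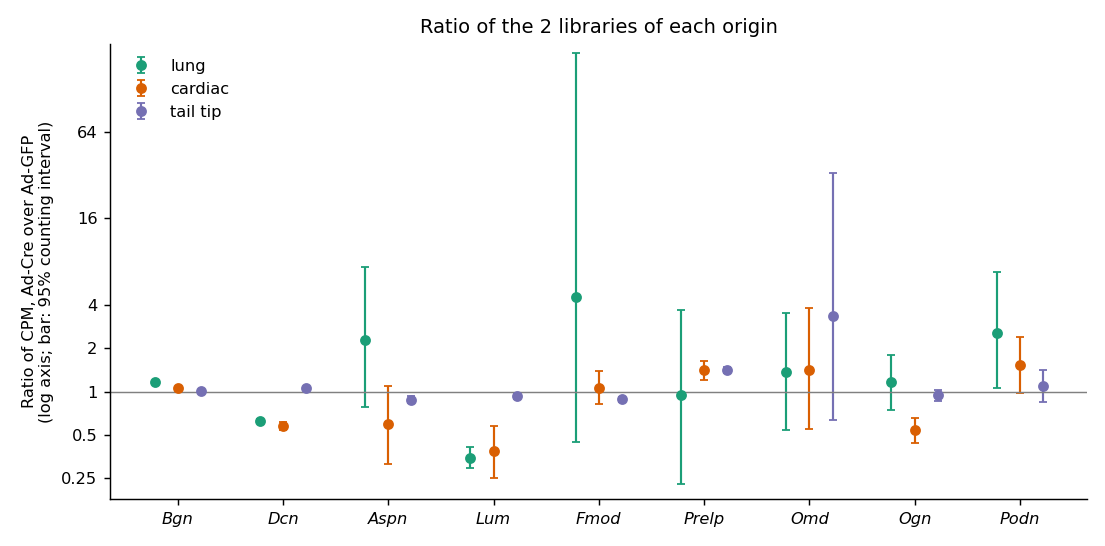
Ratio of normalised read counts, Ad-Cre over Ad-GFP, for the 9 genes in each origin (log axis; bars are 95% counting intervals of 1 library against 1 library). Dcn and Lum lie below 1 in lung and cardiac cells and close to 1 in tail tip cells, and the widest bars belong to genes with few reads.

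The cardiac pair differed in other ways. The spread of log2 ratios over all genes was 1.01 (SD) in the cardiac pair, 0.54 in lung and 0.39 in tail tip, and 116 tested genes with 20 reads or more in 1 cardiac library were at 0 in its partner, as were 2 genes in lung and 0 in tail tip. Macrophage and leukocyte markers were 1052 CPM in cardiac Ad-GFP and 628 in cardiac Ad-Cre, and the 8 epithelial markers 14.1 and 120. The 6 mesothelial markers, which share Krt19 with the epithelial list, were 61.3 and 132 CPM. Of these, Upk3b (95 and 878 reads), Upk1b (184 and 1269), Msln (209 and 842) and Krt19 (153 and 498) rose. Lrrn4 fell from 1048 to 288 reads and Wt1 from 307 to 270. Their part in the cardiac ratios of Dcn, Lum, Ogn and Prelp was not tested. In the lung pair the macrophage markers were 20 and 16.1 CPM and the epithelial ones 2.02 and 5.69. The mesothelial ones were 155 and 195 CPM there, with 4462 and 4948 reads of Msln, while Upk3b and Lrrn4 were at 0. Their part in the lung ratios was not tested either.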

How the data were processed

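Polyadenylated RNA of 6 libraries was sequenced. The authors deposited 1 table of whole-number read counts per Ensembl gene, not normalised. The mm39 build and STAR 2.0.7 are named, per the submitters' processing notes, without roles. For the counting tool, annotation and strand setting: not given in the sources used here. Columns were matched to libraries by the column names in the labels, which name a matrix whose title refers to another subject, so the match rests on the column names alone. Symbols came from an annotation of an earlier build (GRCm38), which matched 51884 of 57180 identifiers, and lengths per kilobase from the same annotation. The 9 genes, the other lists and the rule for named genes were chosen with earlier results of these data known. The rule took all 9 members, the other family genes, up to 4 called genes per list and comparison whose mean reached 1 CPM, and the 3 nearest profiles per member. Those of Lum are not reported here.

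edgeR 4.0.16 (R 4.3.3) fitted robust quasi-likelihood F-tests, two-sided, with origin and virus as additive terms over all 6 libraries (2 residual degrees of freedom). Genes were filtered with filterByExpr (minimum count 10), leaving 18143, all 9 members included. TMM factors ran from 0.964 to 1.03, and p-values were adjusted by Benjamini-Hochberg at 0.05. The script was tested on simulated data. Reads without molecular identifiers are not independent molecules, so intervals cover counting error only. Alternatives were DESeq2 1.42.0, limma-voom (limma 3.58.1), other scalings, filters, prior counts and lengths, a model without virus, and libraries left out.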

Additional observations from a re-analysis of the deposited data

Results flagged for a closer look

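Dcn was lower with Ad-Cre in the lung and cardiac pairs and near level in the tail tip pair. Its ratio of Ad-Cre over Ad-GFP was 1.06 in tail tip cells (95% counting interval 1.04 to 1.08), and 0.626 in lung (0.612 to 0.641) and 0.577 in cardiac cells (0.542 to 0.614). The log2 ratios were 0.09, -0.68 and -0.79 in that order, against an SD over all genes of 0.39, 0.54 and 1.01. Each ratio compares 1 library with 1 library, and the difference between origins was not tested.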

How the results depend on the processing

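By replicate number, no paired analysis was possible because the groups, of 1 library each, share fewer than 2 numbers. The virus comparison pairs the libraries of an origin through its origin term. With 1 library left out, the fit has 1 residual degree of freedom and the lone library of an origin is assumed to vary like the others. The count of members called ran from 5 to 8 for cardiac against lung, 6 to 7 for cardiac against tail tip and 6 to 8 for lung against tail tip over 15 alternatives each. For Ad-Cre against Ad-GFP the count was 0, and it was 1 (Lum) with no filter on low counts and 0 to 1 with each library left out in turn; fewer libraries also change which genes are tested. The calls that were lost or gained for Bgn, Dcn, Aspn and Podn stand beside their values. Lum, Fmod, Prelp and Ogn kept their calls in every alternative of all 3 origin comparisons.

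Signs turned only in the virus comparison, where no such value passed. Fmod went from 0.00 to 0.50 with both tail tip libraries left out, 0.041 with DESeq2, 0.025 with library totals and 0.010 at a mean of at least 10 CPM. Aspn became 0.10 with both tail tip libraries left out, and with 1 library left out Fmod ran from -0.14 to 0.25 (positive without tail tip Ad-Cre or Ad-GFP) and Ogn from -0.47 to 0.0062 (positive without cardiac Ad-GFP). Library totals shifted the median log2 fold change of all genes to -0.11 (cardiac against tail tip) and -0.12 (lung against tail tip). Without mitochondrially encoded genes the share of counts in the 9 genes was 0.315% and 0.323% in lung, 0.385% and 0.428% in cardiac and 0.566% and 0.576% in tail tip. Leaving out both libraries of an origin was chosen after seeing the data, and Podn and Omd were not tested at a mean of at least 10 CPM. Depth limits Omd everywhere and Fmod, Prelp and Aspn in lung, where at most 12 reads were counted.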
